A study of Mus musculus with 16 samples.

Results

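A set of 9 genes that write, maintain or remove DNA methylation, or make the cofactor that its removal needs, were followed in mouse bone marrow hematopoietic stem cells (HSCs). They were the 3 DNA methyltransferase genes Dnmt1, Dnmt3a and Dnmt3b, the Dnmt1 recruiter Uhrf1, the 3 dioxygenase genes Tet1, Tet2 and Tet3, and the isocitrate dehydrogenase genes Idh1 and Idh2. The 9 genes were taken by symbol, with no threshold on their counts, from the 25239 genes of the deposited raw count table. All 9 were among the 14124 genes with enough reads to be tested.

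The cells came from mice aged 4 to 6 months that either had an intact Selp gene (WT) or lacked it by knockout (KO). Selp encodes P-selectin, an adhesion receptor, and the study asked what this receptor and its ligand PSGL-1 do in HSCs. Each genotype was collected fresh after sorting (3 WT and 2 KO libraries), after culture with vehicle (3 WT and 3 KO) or after culture to which 125 ng/mL of PSGL-1 was added for 24 hours (2 WT and 3 KO). All cultures shared the StemSpan base medium with serum (FCS) and the cytokines SCF, IL-11 and Flt-3 ligand. The length of the vehicle culture, the sort gate, the sex of the mice and the origin of replicates from separate mice were not given in the sources used here. The p-values below therefore cover the spread among these libraries alone, part of which may be technical.

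The targeted gene followed the labels. Selp stood at 16.8 to 183 CPM (counts scaled to a common library total) in the 8 WT libraries and at 0 to 12.4 CPM in the 8 KO libraries, with means of 94.1 ± 60.0 and 5.08 ± 4.48 (SD, n = 8 each). The exact two-sided permutation test gave p = 0.0001554, the smallest it can give. Library totals lay between 12590539 and 24690824 counts, so that the 3 counts taken as the detection floor of a library corresponded to 0.122 to 0.238 CPM. One library, WT PSGL-1 replicate 1, was sparse. Reads were found for 9035 genes in it and for 11101 to 13480 in each of the others, and 5165 tested genes had 0 counts in it. Results that turn on it are given with and without it. Of the marker genes checked, all 10 HSC markers were found, Slamf1 being at 0 in 3 libraries, whereas the T cell genes Cd3e, Cd3d and Cd3g and the globin genes Hba-a1, Hbb-bs and Hbb-bt were at 0 in all 16 libraries. Other genes of those lists were detected, with Nkg7 up to 91.5 CPM, Klf1 up to 88.8, Epor up to 83.9 and the B cell gene Cd79b present in all 16 libraries. The HSC list summed to 3691 ± 317 CPM in fresh WT and 2720 ± 361 in WT vehicle cells (SD, n = 3 each). In KO cells it summed to 3654 ± 446 fresh and 3331 ± 78.3 with vehicle (n = 2 and 3). In the test of vehicle against fresh averaged over genotypes, described below, 4 of the 10 HSC markers passed downward and 2 upward. Over all genes 2.3% passed downward and 4.18% upward. The T and NK cell list summed to 80.7 ± 19.3 CPM in fresh WT and 19.3 ± 3.19 in WT vehicle cells, and the erythroid list to 97.3 ± 61.5 and 19.5 ± 21.8 (SD, n = 3 each). Summed granulocyte and monocyte markers were 742 to 787 CPM in fresh WT cells, 1228 to 1301 in fresh KO cells and 123 to 398 over the vehicle cultures. The level of these markers thus differed with culture and, in fresh cells, with genotype, and their part in the results was not tested. In bulk RNA, fewer cells of a type and less RNA per cell cannot be told apart.

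In mammals most methylated cytosines lie in CG dinucleotides. DNMT3A and DNMT3B place new methyl groups, whereas DNMT1 copies the pattern onto the new strand after replication, guided by UHRF1, which reads the half-methylated sites left behind the replication fork. TET enzymes oxidise 5-methylcytosine and thereby start its removal, and they need 2-oxoglutarate, which IDH1 makes in the cytosol and IDH2 in the mitochondrion. In the blood system, loss of Dnmt3a or Tet2 is known to favour HSC self-renewal, mutated DNMT3A and TET2 are frequent in clonal hematopoiesis, and mutant IDH1 and IDH2 make 2-hydroxyglutarate, which inhibits TET enzymes.

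Windows around the annotated starts of Dnmt1 and Uhrf1 are shown first, because these were the members that passed the test after culture. Promoter windows of 300 bases, 250 before to 50 after each start, were available from RefSeq (GRCm38.p6, also named mm10) for all 9 genes, 15 windows in all. They were searched on both strands for 3 words that resemble the recognition sequence of the E2F factors of the cell cycle. The word TTCGCGC occurs in 1.589% of all RefSeq windows of this length, the word TTGGCGC in 2.454% and the word TTCCCGC in 4.6%. Of the 15 windows, 3 held such a word, namely 1 of the 3 windows of Dnmt1 and both of Uhrf1. For comparison, 8.073% of all 32851 windows held at least 1 of them. Each word contains a CG, and most of the 15 windows were richer in CG than the median window, so this share is not matched for CG content. The 3 windows follow 5′ to 3′ on the gene's strand, with the E2F-type words in capitals. The first is chr9:20952574-20952873 (minus strand), the second chr17:56303087-56303386 and the third chr17:56304063-56304362 (both plus strand).
Dnmt1: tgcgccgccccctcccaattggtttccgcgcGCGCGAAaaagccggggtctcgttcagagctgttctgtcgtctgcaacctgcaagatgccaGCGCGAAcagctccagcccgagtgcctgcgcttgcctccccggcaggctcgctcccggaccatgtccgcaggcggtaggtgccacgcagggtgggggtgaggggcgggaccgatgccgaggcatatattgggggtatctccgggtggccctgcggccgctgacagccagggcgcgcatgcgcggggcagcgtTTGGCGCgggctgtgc
Uhrf1, first start: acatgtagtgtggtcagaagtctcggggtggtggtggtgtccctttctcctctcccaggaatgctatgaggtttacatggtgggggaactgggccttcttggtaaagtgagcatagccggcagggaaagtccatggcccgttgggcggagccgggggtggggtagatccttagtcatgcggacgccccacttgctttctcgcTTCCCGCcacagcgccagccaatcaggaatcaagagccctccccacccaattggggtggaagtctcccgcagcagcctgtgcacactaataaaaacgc
Uhrf1, second start: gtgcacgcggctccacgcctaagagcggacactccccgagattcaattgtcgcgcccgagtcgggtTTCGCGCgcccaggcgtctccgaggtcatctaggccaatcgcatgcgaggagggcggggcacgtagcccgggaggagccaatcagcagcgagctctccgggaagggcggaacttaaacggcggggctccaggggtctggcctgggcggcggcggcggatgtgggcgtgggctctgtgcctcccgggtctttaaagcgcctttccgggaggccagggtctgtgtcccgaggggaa
In the Dnmt1 window the words begin 219 and 158 bases before the start and 35 bases into the transcript, the first pair on the opposite strand. This start is the most downstream of the 3 that RefSeq gives for Dnmt1, so transcripts from the other starts run through the window. In Uhrf1 they begin 48 bases before the first start and 184 before the second. The CCAAT word, which 37.408% of all windows hold, was found in 7 of the 15 windows. A match is a description of the letters only. CG dinucleotides, the substrate of the enzymes themselves, were dense in most of the windows. The median over all RefSeq windows was 7, while the single Tet2 window held 57, the Dnmt3a windows 46, 47 and 18, the Dnmt3b window 30, the Idh2 window 20 and the Dnmt1 windows 33, 12 and 2.

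The levels of the genes are compared with each other as CPM per kilobase of exon, since a longer transcript gives more reads. Idh2 (chr7:80094845-80118608) had the highest level per kilobase in all 6 groups, from 214 ± 38.5 in WT vehicle cells to 280 ± 51.7 in WT PSGL-1 cells. In fresh WT cells it was followed by Dnmt1 (chr9:20907206-20959888) at 60.5 ± 16.4, Uhrf1 (chr17:56303337-56323486) at 58.8 ± 9.0 and Dnmt3b (chr2:153649411-153687730) at 46.8 ± 9.12, which did not differ beyond their spread. Idh1 (chr1:65158616-65186479) at 17.6 ± 7.10 and Dnmt3a (chr12:3801559-3914443) at 16.3 ± 4.13 came next, again within each other's spread. The 3 Tet genes were lowest, with 5.14 ± 1.83 for Tet3 (chr6:83362373-83457208), 3.70 ± 1.12 for Tet1 (chr10:62804570-62887469) and 2.28 ± 1.56 for Tet2 (chr3:133463677-133545136), all in CPM per kilobase over 3 libraries (SD). After vehicle culture Idh2 was followed by Uhrf1 and then Dnmt1 in both genotypes.

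The order of levels within some pairs of related genes was nearly the same in each library. Per kilobase, Dnmt3b exceeded Dnmt3a in 15 of 16 libraries with a median ratio of 2.39, WT vehicle replicate 1 being the exception at 0.703. Idh2 exceeded Idh1 in all 16 libraries, 4.39-fold to 20.6-fold. Tet3 exceeded Tet2 in 15 and Tet1 in 14 of 16 libraries. Between Tet1 and Tet2 the order changed from library to library, with Tet1 above Tet2 in 7 of 16. These ratios rest on exon lengths from GENCODE M21, since the annotation behind the counts was not given in the sources used here.

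**Figure D1:**
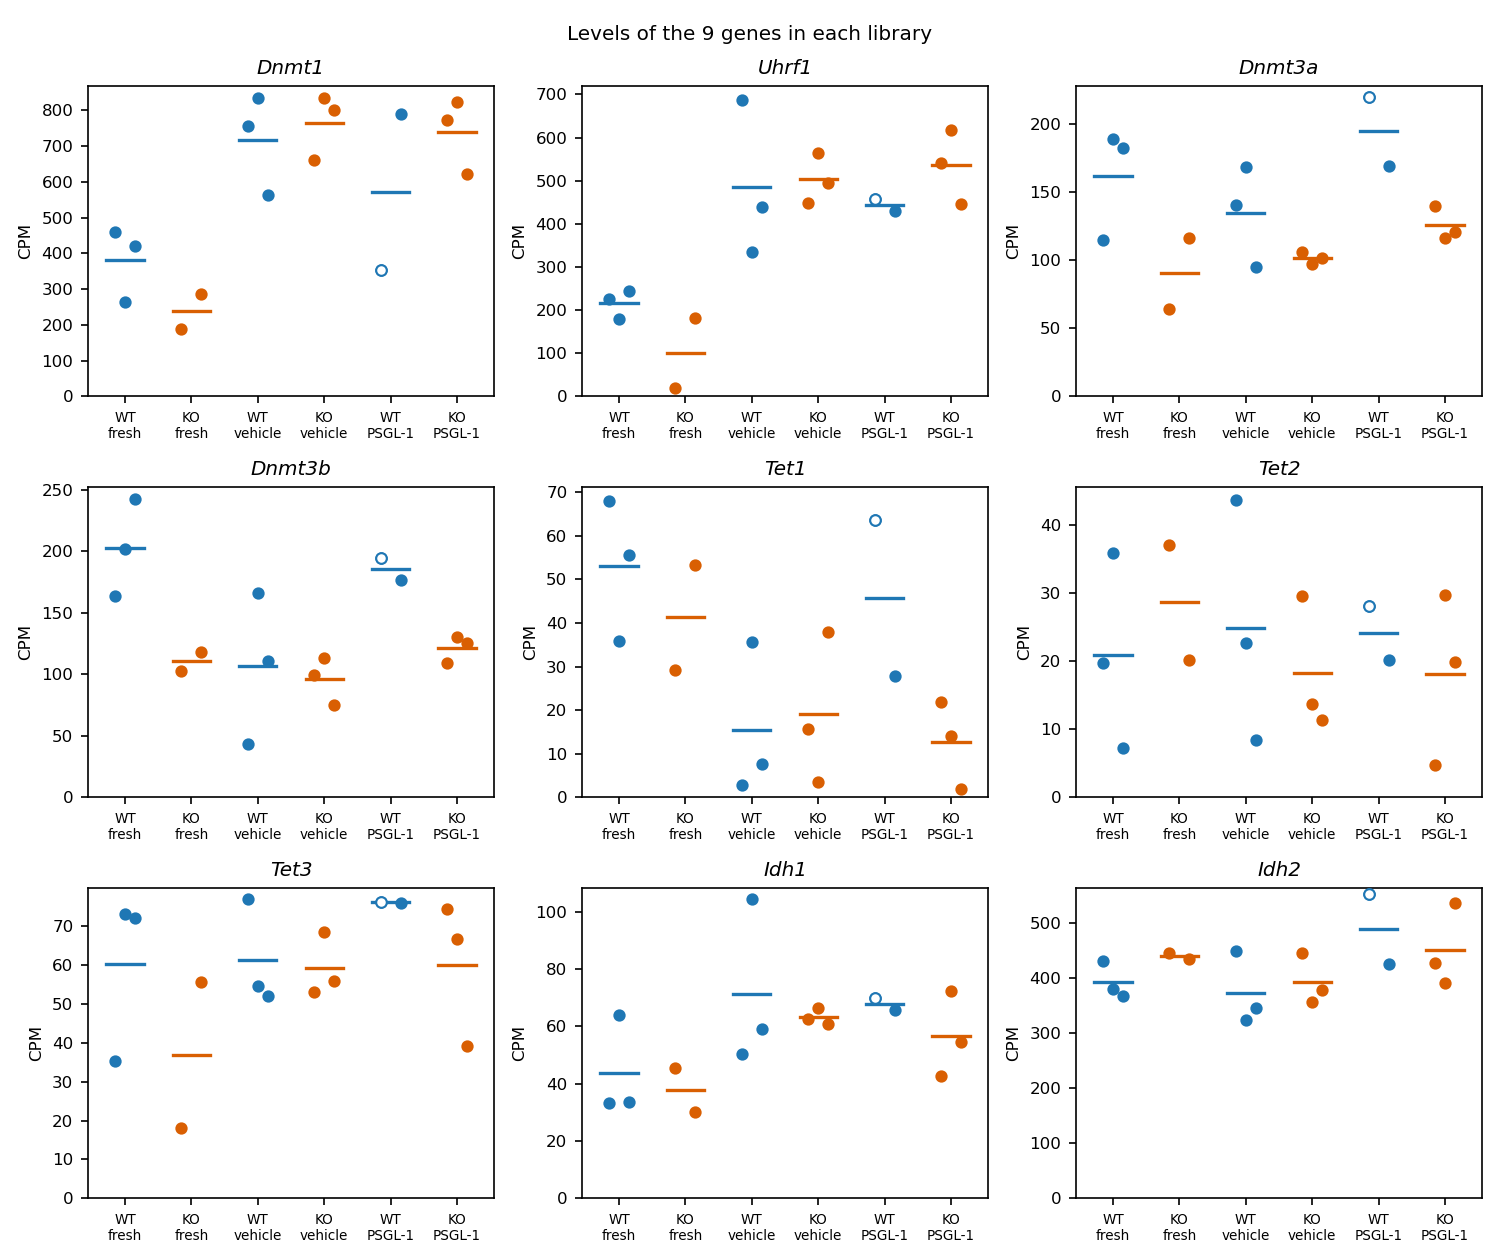
Level of each of the 9 genes in CPM (vertical axis, starting at 0) in each library of the 6 groups, with a bar at the group mean. Blue marks WT and orange KO, and the open symbol is the sparse library WT PSGL-1 replicate 1. Dnmt1 and Uhrf1 are higher in all 6 vehicle libraries than in all 5 fresh ones, and Tet1 and Tet2 scatter widely within groups.

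Dnmt1 and Uhrf1, the maintenance pair, were the members that rose when HSCs were cultured. Averaged over both genotypes, vehicle culture raised Dnmt1 by 1.37 ± 0.22 on the log2 scale (SE, adjusted p = 0.00125) and Uhrf1 by 1.84 ± 0.39 (adjusted p = 0.00876). Both stood higher in each of the 6 vehicle libraries than in any of the 5 fresh ones. None of the other 7 genes passed this test. All adjusted p-values here are from edgeR's quasi-likelihood test with Benjamini-Hochberg adjustment over the 14124 genes, of which 6.48% passed in this comparison and 4.18% passed upward. Libraries that were higher in culture without overlap were found for 3.84% of all genes. The median over the 9 genes was 0.02 on the log2 scale, beside -0.07 over all genes tested.

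Dnmt1, the maintenance methyltransferase, measured 460, 264 and 419 CPM in the 3 fresh WT libraries and 756, 834 and 563 in WT vehicle. In KO cells it was at 189 and 287 CPM fresh and at 661, 836 and 801 after vehicle culture. In neither genotype did the fresh and vehicle libraries overlap, as for 8.38% of all genes in WT and 15.3% in KO cells in that direction. In KO cells the difference was 1.73 ± 0.33 (SE, log2; adjusted p = 0.0126), where 1.77% of all genes passed and 1.23% passed upward. In WT cells it was 1.00 ± 0.28 and missed the threshold (adjusted p = 0.106), where 1.64% passed. The WT value passed with DESeq2 (0.95, adjusted p = 0.0216), with limma's library weights (1.03, adjusted p = 0.0122) and in the fit without the sparse library (1.00, adjusted p = 0.0201). The call in KO cells was lost without KO fresh replicate 1, the lower of the pair (1.51, adjusted p = 0.199), and was kept without KO fresh replicate 2 (2.01, adjusted p = 0.0223).

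Uhrf1, which brings DNMT1 to half-methylated CG sites, measured 225, 179 and 243 CPM in fresh WT libraries and 686, 334 and 438 in WT vehicle. In KO cells it measured 18.9 and 183 CPM fresh, and 449, 565 and 496 after vehicle culture. The fresh libraries lay below the vehicle libraries in both genotypes, as for 8.38% of all genes in WT and 15.3% in KO cells, and KO fresh replicate 1 was far below every other library. The WT difference was 1.27 ± 0.49 (SE, log2; adjusted p = 0.289) and the KO difference 2.41 ± 0.60 (adjusted p = 0.0557). The KO value shrank to 1.55 when KO fresh replicate 1 was left out (adjusted p = 0.0852). It was 4.72 when instead KO fresh replicate 2 was left out (adjusted p = 8.05e-05). The KO difference passed with DESeq2 (2.36, adjusted p = 0.000589), with limma's library weights (3.05, adjusted p = 0.0081) and without the sparse library (2.42, adjusted p = 0.0316). The WT difference passed with limma alone among the tools run (1.33, adjusted p = 0.0106).

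Whether culture moved these genes more in KO than in WT cells was tested directly. The difference of the culture responses, KO minus WT, was 0.73 ± 0.42 for Dnmt1 (SE, log2; unadjusted p = 0.105, adjusted p = 1), the smallest p among the 9 members. No gene of the 14124 passed that test with edgeR (0%), while 353 had an unadjusted p under 0.05. Without KO fresh replicate 2, which leaves the low library alone in its group, Uhrf1 passed it with 3.46 (adjusted p = 0.00336). The same omission gave Uhrf1 a fresh KO against WT difference of -3.41 (adjusted p = 0.00123), so these values rest on the single library KO fresh replicate 1.

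Genes of DNA replication and the cell cycle moved in the same direction as Dnmt1 and Uhrf1. A list of 21 such genes, among them the replicative helicase subunits Mcm2 to Mcm7 and the proliferation marker Mki67, summed to 3292 to 4267 CPM in fresh WT cells, 1787 and 3058 in fresh KO cells, 7167 to 7488 in WT vehicle and 6981 to 7600 in KO vehicle. Of the 21, 14 rose in vehicle culture averaged over genotypes and none fell, beside 4.18% of all genes passing upward and 2.3% downward. All 21 had a difference above 0, as did 46.8% of all genes tested. In WT cells 8 of 21 passed and in KO cells 11 of 21, all upward, beside 1.23% of all genes in each genotype. The sparse library was lower in the sum (5032 CPM) than WT PSGL-1 replicate 2 (7905 CPM), as it was in Dnmt1 (354 and 789 CPM), while its Uhrf1 (458 CPM) was close to that of replicate 2 (430 CPM). The part of cell cycling in the differences of Dnmt1 and Uhrf1 was not tested.

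**Figure D2:**
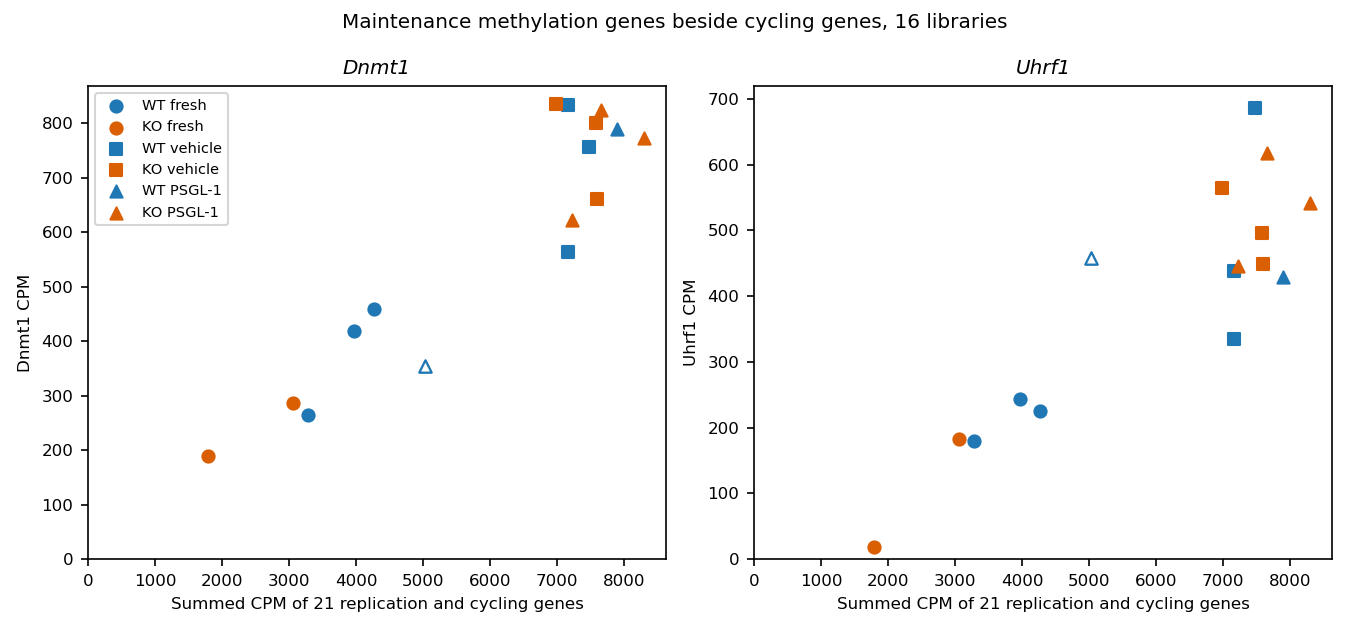
Dnmt1 (left) and Uhrf1 (right) in CPM against the summed CPM of 21 replication and cycling genes, 1 symbol per library, all axes starting at 0. Circles are fresh, squares vehicle and triangles PSGL-1 libraries, blue is WT and orange KO, and the open triangle is the sparse library. Fresh libraries lie at sums of 1787 to 4267 CPM and vehicle libraries at 6981 to 7600 CPM, with both genes higher in the latter.

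Of the other proteins of maintenance methylation, 6 of 7 listed genes were tested, and 3 rose in culture averaged over genotypes while none fell. Over all genes 4.18% passed upward and 2.3% downward in that comparison. Pclaf, whose ubiquitylated product recruits DNMT1 during replication, rose by 2.10 ± 0.23 (SE, log2; adjusted p = 5.18e-05). The remodeller gene Hells, needed for methylation of repeats, rose by 1.63 ± 0.29 (adjusted p = 0.00313). Pcna, the sliding clamp that binds DNMT1 and also a member of the cycling list, rose by 1.26 ± 0.15 (adjusted p = 0.000114). Pclaf and Pcna passed in each genotype alone, with adjusted p of 0.00467 and 0.0266 in WT and of 0.0019 and 0.0017 in KO cells, and Hells passed in KO cells (2.13 ± 0.45, adjusted p = 0.0228, against 1.13 ± 0.38, adjusted p = 0.203, in WT). The difference between genotypes for Hells was 1.01 ± 0.57 and did not pass (adjusted p = 1). Uhrf2, the paralog of Uhrf1, was lower by group mean after culture. It stood at 129 ± 36.7 CPM in fresh WT and 69.0 ± 11.4 in WT vehicle (SD, n = 3 each), a difference that did not pass averaged over genotypes (-0.65 ± 0.27, adjusted p = 0.192).

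The de novo enzymes gave no called difference between fresh and cultured cells. Dnmt3a measured 115, 189 and 182 CPM in fresh WT and 141, 168 and 95 in WT vehicle. In KO cells it measured 64.3 and 116 CPM fresh, and 106, 96.7 and 102 after vehicle culture. The fresh and vehicle libraries overlapped in both genotypes. Dnmt3b measured 163, 202 and 242 CPM in fresh WT and 43.1, 166 and 111 in WT vehicle, so that the highest vehicle library reached just above the lowest fresh one. In KO cells Dnmt3b was at 103 and 118 CPM fresh, and at 99.8, 113 and 74.8 after vehicle culture. Neither gene passed the test of vehicle against fresh in either genotype.

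Dnmt3a was lower in KO than in WT cells in each of the 3 conditions by group mean, and in no condition did it pass the test. It averaged 162 ± 40.9 CPM in WT and 90.4 ± 36.9 in KO cells fresh (SD, n = 3 and 2), 135 ± 37.0 and 101 ± 4.69 with vehicle (n = 3 each), and 195 ± 35.8 and 126 ± 12.3 with PSGL-1 (n = 2 and 3). Group means of Dnmt3b, Tet3 and Idh1 were also lower in KO than in WT cells in all 3 conditions. Dnmt3a had the smallest p of the 9 genes in all 3 comparisons. The difference was -0.81 ± 0.31 fresh (SE, log2; adjusted p = 1), -0.42 ± 0.27 with vehicle (adjusted p = 1) and -0.64 ± 0.30 with PSGL-1 (adjusted p = 0.765). Averaged over conditions it was -0.62 ± 0.17, with an unadjusted p of 0.00204 and an adjusted p of 0.436, where 0.0354% of all genes passed and 6.84% had an unadjusted p under 0.05. In that average Dnmt3b also had an unadjusted p under 0.05 (0.0281), with an adjusted p of 0.692. For Dnmt3a DESeq2 gave -0.63, near the edgeR value, with an adjusted p of 0.0334, in a fit where 1.68% of all genes passed. With limma's library weights the Dnmt3a value was -0.59 (adjusted p = 0.807). Without WT PSGL-1 replicate 2, which leaves the sparse library alone in its group, the value was -0.67 (adjusted p = 0.0165), a fit in which 15.1% of all genes passed.

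In fresh cells the members as a set were mostly lower in KO libraries, 7 of 9 below 0 with a median of -0.65 on the log2 scale beside 0 over all genes tested, and -0.26 without KO fresh replicate 1. None passed the test, as was so for all but 1 of the 14124 genes (0.00708%). The libraries of Dnmt3b did not overlap, being lower in KO cells, against 9.95% of all genes with libraries lower in KO without overlap. Those of Idh2 did not overlap either, at 445 and 435 CPM in KO and 431, 381 and 368 in WT cells, against 9.1% of all genes in that direction. KO fresh replicate 1 was the lowest of all 16 libraries for Dnmt1, Uhrf1, Dnmt3a and Tet3. Cycling genes were also lower in fresh KO cells, with 20 of 21 below 0 and a median of -0.74, none of which passed. Over all genes 6950 of 14124 lay below 0 in this comparison. The summed cycling genes were at 1787 CPM in KO fresh replicate 1 and 3058 in replicate 2, against 3292 to 4267 in fresh WT. With vehicle the members' median difference was -0.06 and with PSGL-1 -0.36, beside 0 and 0.17 over all genes. Averaged over conditions 8 of the 9 members lay below 0, as did 6217 of the 14124 genes, and no member passed. The members' median there was -0.27, against 0.07 over all genes, and lay at -0.32 when KO fresh replicate 1 was left out and at -0.55 when replicate 2 of that group was left out.

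**Figure D3:**
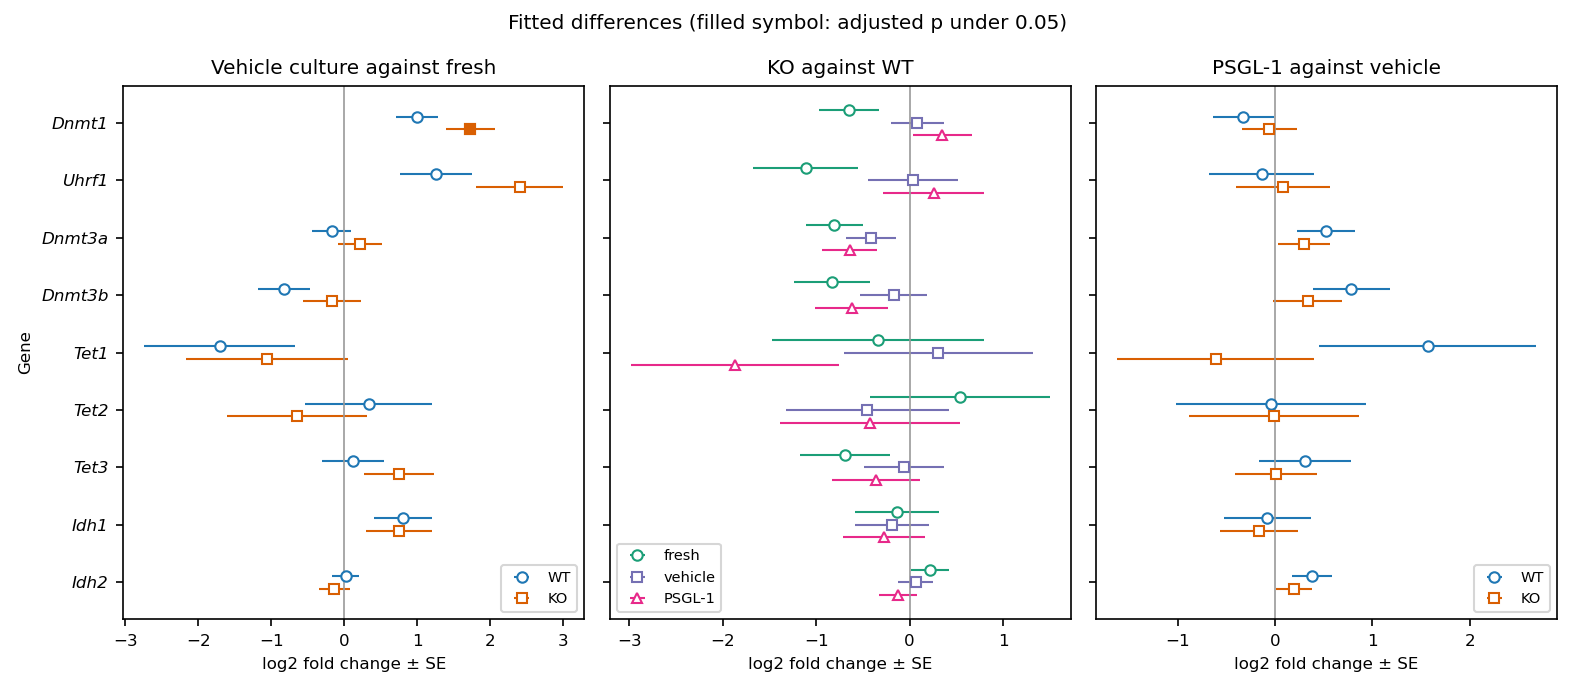
Fitted log2 fold change ± SE (horizontal axis) of the 9 genes for vehicle against fresh in WT and KO cells (left), KO against WT in the 3 conditions (middle) and PSGL-1 against vehicle in both genotypes (right). Filled symbols have an adjusted p under 0.05. The only filled symbol among these 7 comparisons is Dnmt1 in KO cells, vehicle against fresh, and Tet1 and Tet2 have the widest errors.

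Tet1 and Tet2 were the most scattered of the 9 genes within groups. Tet1, best known from embryonic stem cells and germ cells, measured 67.9, 36.0 and 55.6 CPM in fresh WT and 2.76, 35.7 and 7.59 in WT vehicle. In KO cells it was at 29.3 and 53.3 CPM fresh and at 15.7, 3.49 and 37.9 after vehicle culture. All WT vehicle libraries lay below all fresh WT libraries, although the nearest pair, 35.7 and 36.0 CPM, nearly met, and 14.8% of all genes were lower without overlap in that comparison. The difference of -1.71 ± 1.04 did not pass (SE, log2; adjusted p = 0.526). Averaged over genotypes Tet1 passed with limma's library weights, where 13.4% of all genes passed, and with none of the other settings. Its level spanned 37.3-fold over the 16 libraries, and the lowest, 1.82 CPM in KO PSGL-1 replicate 3, rested on 30 counts (95% exact Poisson interval 1.23 to 2.60 CPM, counting error only).

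Tet2, the Tet gene most often mutated in blood cancers, ranged from 4.75 CPM in KO PSGL-1 replicate 1 to 43.7 in WT vehicle replicate 1. In fresh WT cells it measured 19.7, 35.9 and 7.23 CPM and in WT vehicle 43.7, 22.7 and 8.39. Fresh and vehicle libraries overlapped in both genotypes, and KO and WT libraries overlapped in all 3 conditions. Within groups Tet2 varied by 59.7% and Tet1 by 57.4% (coefficient of variation), against medians of 52.7% and 47.4% over genes of like level. The spread of both was thus near that of other genes at their level. The SE of the Tet2 log2 fold change between single groups lay between 0.87 and 0.97. The smallest change of Tet2 that 2 or 3 libraries a group could show was not computed.

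Tet3, the most abundant of the 3 per kilobase in most libraries, measured 35.4, 73.2 and 72.3 CPM in fresh WT and 76.9, 54.8 and 52.1 in WT vehicle. In KO cells it measured 18.1 and 55.7 CPM fresh, and 53.2, 68.6 and 56.0 after vehicle culture. These groups overlapped, and Tet3 did not pass in any comparison. Its within-group variation of 28.4% lay below the 36.6% median of genes of like level.

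The isocitrate dehydrogenase genes differed in how steady they were. Idh2, the mitochondrial enzyme, was the least variable of the 9 genes, with a 1.71-fold range over all 16 libraries and a within-group variation of 14.2% against 19.8% for genes of like level. It measured 450, 324 and 347 CPM in WT vehicle and 446, 357 and 379 in KO vehicle, overlapping the fresh values above. Idh1, the cytosolic enzyme, measured 33.3, 63.9 and 33.6 CPM in fresh WT and 50.5, 105 and 59.0 in WT vehicle. In KO cells it was at 45.6 and 29.9 CPM fresh and at 62.4, 66.2 and 60.8 after vehicle culture. The KO libraries did not overlap, as was so for 15.3% of all genes in that direction, and the difference did not pass (0.76, adjusted p = 0.572).

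PSGL-1 moved none of the 9 genes past the threshold in either genotype. No gene of the 14124 passed in WT or in KO cells (0% in both) with edgeR, although 803 and 198 had an unadjusted p under 0.05 and DESeq2 called 229 in WT cells. In WT cells Dnmt3b measured 194 and 176 CPM with PSGL-1 against 43.1, 166 and 111 with vehicle, a difference of 0.78 ± 0.39 (SE, log2; adjusted p = 0.774). Its libraries did not overlap, and neither did those of Dnmt3a, at 220 and 169 CPM with PSGL-1 and 141, 168 and 95 with vehicle, against 5.87% of all genes higher without overlap. The values of 194 and 220 CPM are those of the sparse library. Without it the PSGL-1 group is replicate 2 alone. That library stood at 176 CPM for Dnmt3b and 169 for Dnmt3a, near the highest vehicle libraries at 166 and 168. In KO cells Dnmt3a measured 140, 116 and 121 CPM with PSGL-1 against 106, 96.7 and 102 with vehicle, again without overlap, where 4.24% of all genes did so, and the difference was 0.30 ± 0.27 (adjusted p = 1). Averaged over genotypes, with the sparse library included, Dnmt3b had the smallest p of the members, with 0.56 ± 0.27 (unadjusted p = 0.0522, adjusted p = 1).

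The other members gave no called difference between PSGL-1 and vehicle either. Under PSGL-1 Dnmt1 measured 354 and 789 CPM in WT and 772, 825 and 623 in KO cells. Without WT PSGL-1 replicate 2 the sparse library alone stood for its group, and Dnmt1 then passed both against WT vehicle (-1.07, adjusted p = 0.0319) and for KO against WT (1.1, adjusted p = 0.028), in fits where 19.7% and 19.8% of all genes passed. Uhrf1 measured 458 and 430 CPM in WT and 542, 618 and 446 in KO cells. Tet1 was at 63.6 and 27.8 CPM in WT and at 21.9, 14.1 and 1.82 in KO cells treated with PSGL-1, lower in KO without overlap, as were Dnmt3a, Dnmt3b and Tet3, against 6.32% of all genes. The Tet1 difference was -1.87 ± 1.12 (SE, log2; adjusted p = 0.765), and -1.17 ± 1.26 without the sparse library (adjusted p = 1). The difference of the PSGL-1 responses between genotypes was largest in size for Tet1 among the 9, at -2.18 ± 1.51 (adjusted p = 1), or -1.50 ± 1.58 without the sparse library (adjusted p = 1). No gene of the 14124 passed that test with edgeR (611 with an unadjusted p under 0.05).

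Genes that supply or act with these enzymes were described from lists of related genes. Of 11 genes of methyl donor supply, 3 rose in vehicle culture averaged over genotypes and none fell, beside 4.18% of all genes that passed upward and 2.3% that passed downward. They were Mthfd1 of the folate cycle (1.11 ± 0.26 SE, log2, adjusted p = 0.0164), Ahcy, which clears the methylation inhibitor S-adenosylhomocysteine (0.83 ± 0.23, adjusted p = 0.0412), and the methionine salvage gene Mtap (0.73 ± 0.18, adjusted p = 0.024). None of the 3 passed in 1 genotype alone. Of 17 genes of 2-oxoglutarate metabolism and neighbouring steps of the citrate cycle and serine synthesis, 2 rose and none fell. Idh3a, a subunit of the mitochondrial NAD-linked isocitrate dehydrogenase, and Fh1, which encodes fumarase, rose by 0.85 ± 0.17 (adjusted p = 0.00667) and 0.58 ± 0.16 (adjusted p = 0.0375). Idh3a measured 110 ± 29.3 CPM in fresh WT and 202 ± 41.1 in WT vehicle cells (SD, n = 3 each) and passed in WT alone as well (0.99 ± 0.22 SE, adjusted p = 0.0379).

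Of 5 tested partners and regulators of the TET enzymes, 1 fell. Ogt, the sugar transferase that binds TET2 and TET3, measured 414 ± 18.9 CPM in fresh WT and 258 ± 79.6 in WT vehicle (SD, n = 3 each), and 364 ± 106 and 167 ± 26.7 in KO cells (n = 2 and 3). It fell by 0.84 on the log2 scale averaged over genotypes (SE 0.18, adjusted p = 0.0113). Of 12 genes of base excision after TET oxidation, 1 rose, the abasic site endonuclease gene Apex1 (0.70 ± 0.17, adjusted p = 0.0191). Over all genes 2.3% passed downward and 4.18% upward in this comparison. Single genes in lists of 5 and 12 say little about the lists. Of 8 readers of methylated CG, including Mbd2, none passed in vehicle against fresh. In KO against WT and in PSGL-1 against vehicle no gene of these lists passed. Of the other genes of the Dnmt family listed, Trdmt1, which methylates transfer RNA, was tested and did not pass, and Dnmt3l, the cofactor of de novo methylation in germ cells, lay too low to be tested.

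**Figure D4:**
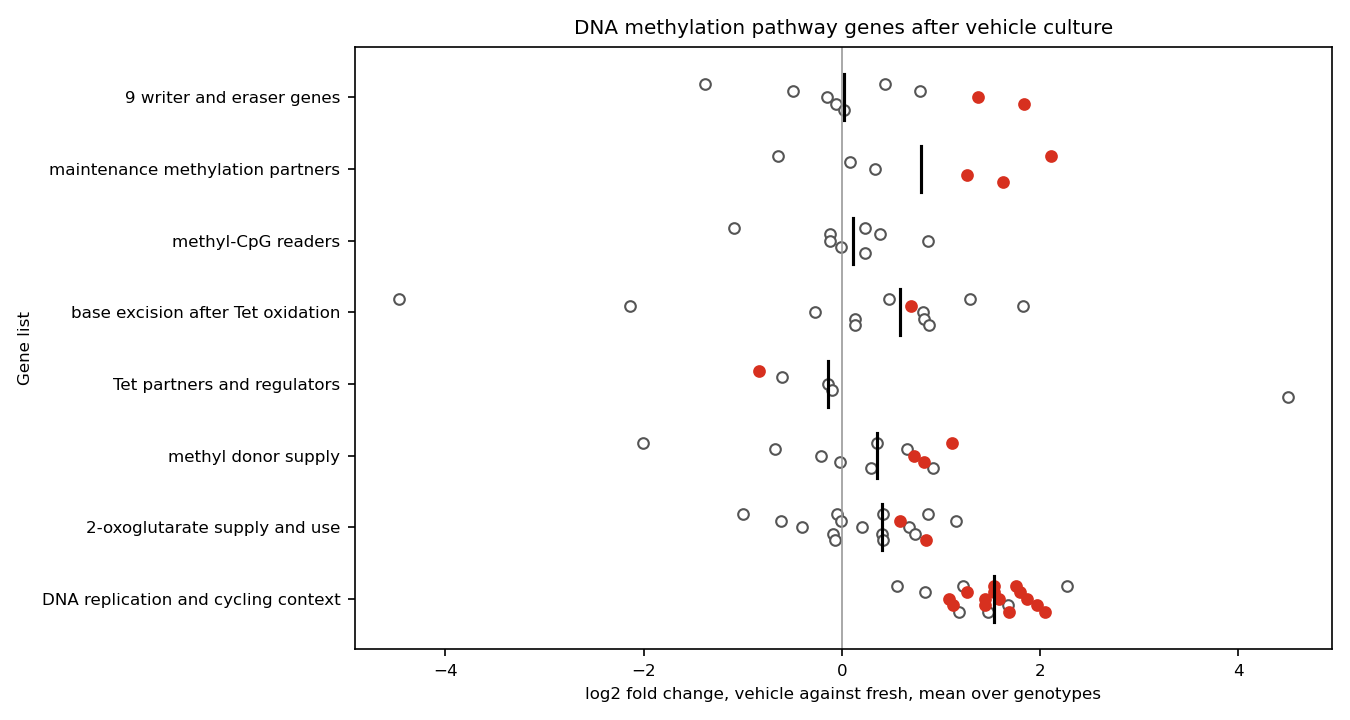
Log2 fold change of vehicle against fresh, mean over genotypes (horizontal axis), for the tested genes of 8 lists, 1 point per gene, with a black bar at each list's median. Red points have an adjusted p under 0.05, and points are offset vertically only to separate them. In the top row the 2 red points are Dnmt1 and Uhrf1, and the replication and cycling list lies above 0 throughout.

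Over the 16 libraries the genes with the profile most like Dnmt1 among 10227 searched were Ncapd2 (Pearson r of log2(CPM + 1) 0.949), Mcm3 (0.947) and Mcm2 (0.941), and for Uhrf1 they were Scd2 (0.968), Psme3 (0.96) and Mthfd1 (0.954). Without the sparse library these 6 values lay at 0.946, 0.959, 0.967, 0.977, 0.976 and 0.956. The highest values were lower for the other members, from Adam10 with Tet3 (0.937) and Tmem80 with Tet1 (0.894) through Rreb1 with Dnmt3a (0.867), Sh2b2 with Idh1 (0.842) and Chka with Dnmt3b (0.823) to Zfp326 with Idh2 (0.806) and Lcor with Tet2 (0.793). Among the members themselves Dnmt1 and Uhrf1 were most alike (0.825, and 0.88 without the sparse library), followed by Uhrf1 with Tet3 (0.762) and Dnmt3a with Tet3 (0.716). These correlations are descriptions over libraries that share the 6 groups and the split into fresh and cultured cells. KO fresh replicate 1, the lowest of all 16 libraries for Dnmt1, Uhrf1, Dnmt3a and Tet3, was kept in all of them. How far they rest on that library was not tested.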

How the data were processed

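The values are raw read counts per gene symbol, deposited by the authors for 16 libraries of sorted mouse HSCs. Libraries were made with a low-input cDNA amplification kit, per the labels' protocols. The submitters' processing notes name STAR 2.7.5c, featureCounts, MultiQC 1.10, DESeq2 and mm10. Annotation, strand setting and handling of multiply matching reads were not given in the sources used here. Totals were 12590539 to 24690824 counts.

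One edgeR quasi-likelihood model (robust, TMM scaling, filterByExpr by group) took all 16 libraries, with a mean for each group and no block. Genes were called at a Benjamini-Hochberg adjusted p under 0.05 over 14124 genes. The common biological coefficient of variation was 0.977. CPM use the library total and are shown ± SD. Exon lengths are unions of exons in the GENCODE M21 basic set, and coordinates and promoters come from RefSeq GRCm38.p6. No annotated gene overlapping a member shared exon bases with it. Replicates were counted as the labels list them. Each pair differed by more than counting noise (chi-square per degree of freedom of at least 59.79), as split preparations of 1 amplified sample could too. The fit was tested on simulated data. Tools were DESeq2 1.42.0, limma 3.58.1, edgeR 4.0.16 and R 4.3.3.

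The members and lists were chosen with earlier results of these data known. A fold change with its SE is given for members that passed, that had libraries without overlap and an absolute log2 fold change of at least 1, or that had the smallest p of a comparison, and for up to 4 called genes of each other list per comparison. Uhrf2, Ogt, Apex1, Ahcy, Mthfd1, Mtap, Fh1 and the Idh1 fold change were named after their values were seen. Likeness used Pearson r among genes averaging at least 5 CPM. Alternatives were DESeq2, limma voom with library weights, RLE scaling, no filter, a stricter filter, the compared groups alone, a fit without WT PSGL-1 replicate 1, each library left out, and blocks for the replicate number or for the library number in sets of 6.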

Additional observations from a re-analysis of the deposited data

How the results depend on the processing

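Of the 9 genes, 2 (Dnmt1 and Uhrf1) passed for vehicle against fresh averaged over genotypes under each alternative run, and limma's library weights added Tet1. That limma fit called 13.4% of all genes, against 6.48% in the main analysis. In WT cells alone none passed in the main analysis, against 1 with DESeq2, 2 with limma and 1 without the sparse library. In KO cells alone 1 passed, against 2 with DESeq2, 2 with limma and 2 without the sparse library. For KO against WT averaged over conditions, DESeq2 called 1 (Dnmt3a) where the main analysis called 0. Of all genes DESeq2 called 1.68% there, against 0.0354% in the main analysis. With each library left out in turn, the count ranged from 0 to 2 for culture in KO cells (0 without KO fresh replicate 1, 2 without KO fresh replicate 2). It ranged from 0 to 1 for fresh KO against WT, for the culture response KO minus WT, for KO against WT under PSGL-1, for PSGL-1 against vehicle in WT cells and for KO against WT averaged over conditions. The single calls were Uhrf1 without KO fresh replicate 2 in the first, second and last of these, Dnmt1 without WT PSGL-1 replicate 2 in the PSGL-1 comparisons, and Dnmt3a without that library in the average. No sign of a called value turned. The cause of these shifts was not tested, and a group left with 1 library is assumed to vary like the others.

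The number of all genes called also moved. For vehicle against fresh it was 231 in WT and 250 in KO cells, against 804 and 832 with DESeq2, 706 and 542 with limma, and 440 and 554 without the sparse library. Leaving out 1 library gave 85 to 153 in WT and 76 to 488 in KO cells. With limma 180 of the KO calls were higher and 362 lower, against 174 and 76.

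The replicate block left the members' calls as they were, with 0 in WT, 1 in KO cells and 2 averaged over genotypes, and it called 197, 206 and 788 genes in all. Over 36 pairs of libraries with the same replicate number, deviations from the group means correlated at -0.0608 to 0.077. The median was 0.005725, beside -0.00548 for other pairs. Deviations within groups of 2 or 3 libraries mirror each other, so these values cannot tell whether libraries with the same number share an origin. Counting error at the lowest Tet1 level, 30 counts, spans 1.23 to 2.60 CPM.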
